A study of Mus musculus with 4 samples.

Results

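The genes of glucose breakdown, the pentose phosphate pathway and pyruvate use were followed in mouse thymus as 40 gene symbols chosen by name, of which 34 were measured among 10598 genes. Hk2, Hk3, Pfkfb4, Aldoc, Eno2 and Tigar were not analysed here. Whole thymus had been taken from C57BL/6J mice in 4 groups, with 1 RNA sequencing library each. The MNU-treated knockout was a CAMKIIgamma-/- mouse thymus after N-methyl-N-nitrosourea (MNU), an alkylating mutagen that induces T-cell lymphoma, given once into the peritoneum at 75 mg/kg and 4 to 5 weeks of age. The vehicle knockout was the same genotype with vehicle. The MNU-treated wild type and the vehicle wild type had the same treatments and an intact gene. The labels give 6 months as the treatment time in all groups, and they do not say how many animals went into a library. The design text calls the MNU condition malignant, but no label says whether a given thymus held a tumour. The knockout is not described as limited to any cell type. With 1 library per group there is no replicate check on any difference below, so values are given as they stand, with no test and no error.

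Glycolysis splits glucose into pyruvate in the cytosol, and a branch from glucose-6-phosphate, the pentose phosphate pathway, supplies NADPH and ribose for nucleotides. Pyruvate is either reduced to lactate by lactate dehydrogenase or carried into mitochondria, where pyruvate dehydrogenase commits it to the citric acid cycle and the pyruvate dehydrogenase kinases (PDKs) hold that step back. Proliferating thymocytes and lymphoma cells are known for high glycolysis with lactate release. MYC, the protein named in the title of the study, and the hypoxia factor HIF1A are both known activators of many of these genes.

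Both factors bind short DNA motifs, and the upstream stretches of 4 genes are shown because they carry these letters and come from genes that stood high (Ldha, Pgk1) or low (Pdk2, Pcx) in the wild-type library with MNU. Each stretch is the 250 bases before an annotated start in RefSeq on build GRCm38.p6, and capitals mark CACGTG, the canonical E-box of MYC, and ACGTG, a core of the hypoxia response element, on either strand. Every CACGTG holds ACGTG. All motif counts cover both strands. Ldha, Pdk2 and Pcx each have another annotated start, not shown, whose stretch holds neither CACGTG nor ACGTG.
Ldha (lactate dehydrogenase A), chr7:46845554-46845803, + strand: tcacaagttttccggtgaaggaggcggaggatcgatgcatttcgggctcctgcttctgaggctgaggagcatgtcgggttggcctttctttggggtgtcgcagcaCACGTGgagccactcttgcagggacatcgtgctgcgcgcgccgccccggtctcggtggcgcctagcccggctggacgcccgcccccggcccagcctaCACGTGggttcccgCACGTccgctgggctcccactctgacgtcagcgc
Pgk1 (phosphoglycerate kinase), chrX:106186850-106187099, + strand: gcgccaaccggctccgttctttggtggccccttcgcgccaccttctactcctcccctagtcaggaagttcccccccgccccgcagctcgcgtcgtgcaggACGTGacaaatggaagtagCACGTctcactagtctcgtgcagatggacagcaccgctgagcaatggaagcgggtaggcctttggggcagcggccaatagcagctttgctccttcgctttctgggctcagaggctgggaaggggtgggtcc
Pdk2 (a PDK), chr11:95041372-95041621, - strand: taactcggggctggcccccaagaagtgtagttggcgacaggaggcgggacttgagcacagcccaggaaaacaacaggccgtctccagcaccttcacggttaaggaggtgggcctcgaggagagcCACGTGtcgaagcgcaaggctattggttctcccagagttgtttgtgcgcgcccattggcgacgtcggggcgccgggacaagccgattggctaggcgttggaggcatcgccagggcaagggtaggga
Pcx (pyruvate carboxylase), chr19:4510222-4510471, + strand: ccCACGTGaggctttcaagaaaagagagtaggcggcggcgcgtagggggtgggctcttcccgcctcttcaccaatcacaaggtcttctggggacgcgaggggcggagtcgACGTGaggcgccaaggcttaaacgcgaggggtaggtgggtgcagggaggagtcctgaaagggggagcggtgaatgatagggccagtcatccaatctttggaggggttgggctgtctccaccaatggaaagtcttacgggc

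All 34 genes had such a stretch, 51 in total, since 12 genes have more than 1 start. CACGTG was found in 6 of the 51 (11.8%), against 6.02% of all 32851 stretches in the table. ACGTG was found in 16 of the 51 (31.4%), against 16.6% of all. A second hypoxia core, GCGTG, was found in 27 (52.9%), against 28.2% of all. GTGGGAA, the site of RBPJ, the DNA-binding partner of NOTCH, was found in 2 (3.92%), of Pdha1 and Pdk4, against 5.42% of all. The 6 genes with CACGTG were Pfkm, Pfkfb2, Pfkfb3, Ldha, Pdk2 and Pcx, of which Pdk2 and Pcx were at least 2-fold lower with MNU in wild type. The log2 differences of the other genes were 0.52 for Pfkm, 0.55 for Ldha, -0.90 for Pfkfb2 and -0.88 for Pfkfb3, short of 2-fold. The stretches of all genes were not matched to the 51 in base composition, and its part in these shares was not tested. Some stretches of the same gene overlap, as for Aldoa and Eno1, so the same match can be counted more than once. A match of letters is a description, not a binding site.

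Normalised counts summed to between 32911362 and 34836257 per library. Camk2g, the deleted gene, stood at 29.7 in MNU-treated knockout, 489 in vehicle knockout, 3173 in MNU-treated wild type and 2749 in vehicle wild type. The library labelled vehicle knockout held a part of the wild-type MNU profile: 42 genes that exceeded 1000 in MNU-treated wild type, and were there over 20-fold above the other wild-type library and above MNU-treated knockout, were all raised in it, by a median of 15.4% of the excess (5th to 95th percentile 13.9% to 18.5%). Camk2g in that library, taken above its level in MNU-treated knockout, was 14.6% of the same excess in MNU-treated wild type. None of the 34 genes was among these 42. Of the 42, 3 were copies of another row in all values, so the 42 are not all separate measurements. The counts at 2-fold and some single values that rest on this library are therefore given also with that share subtracted. Some are given with the library left out. The other values of this library, such as isozyme ratios and marker sums, are given only as deposited. Thymocyte markers were present in every library. The sum over 13 genes was 405360 in MNU-treated knockout, 328261 in vehicle knockout, 226364 in MNU-treated wild type and 454778 in vehicle wild type. The 13 did not move together. With MNU in wild type, 2 were at least 2-fold higher and 4 lower, where 7.14% and 14.2% of all genes were. Their log2 differences ran from -3.76 to 2.03. The summed level of 12 thymic epithelial markers was 78084 in MNU-treated knockout, 102656 in vehicle knockout, 2219 in MNU-treated wild type and 95819 in vehicle wild type, and Foxn1, a defining marker, was listed at 0 in MNU-treated wild type. The summed level of 6 measured dendritic cell and MHC class II markers was 161750 in MNU-treated knockout, 144472 in vehicle knockout, 4856 in MNU-treated wild type and 120066 in vehicle wild type. The summed level of 10 proliferation genes was 101784 in MNU-treated knockout, 109680 in vehicle knockout, 176702 in MNU-treated wild type and 106149 in vehicle wild type. The part of these shifts in the values below was not tested, and in whole tissue fewer cells of a type and less RNA per cell cannot be told apart.

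With MNU, 6 of these genes were past 2-fold in wild-type thymus. Pkm2, the symbol used for the pyruvate kinase gene Pkm, and Pgk1 were more than 2-fold higher with MNU, as was the low-level gluconeogenic gene Fbp1, whereas Pdk2, Pdk4 and Pcx were at least 4.2-fold lower. At 2-fold or more on the log2(value + 10) scale, 3 of 34 genes were higher, where 7.14% of 10587 genes were, and 3 were lower, where 14.2% were. The share among the 34 genes was 8.82% each way. At 1.5-fold or more, 5 of 34 were higher, adding Tpi1 and Gapdh, where 17.2% of all genes were, and 8 were lower, adding Aldoa, Pfkfb2, Pfkfb3, Eno3 and Rpia, where 22.7% were. Their median log2 difference was -0.11, against -0.01 over all genes. As a group the genes thus stood close to the background, but the parts of the pathway differed. Of the 7 lower glycolysis genes, MNU-treated wild type lay above all other libraries for 5, where 44.4% of all genes did. It lay below them for 1. The median fold of the 7 over vehicle wild type was 1.34.

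**Figure D1:**
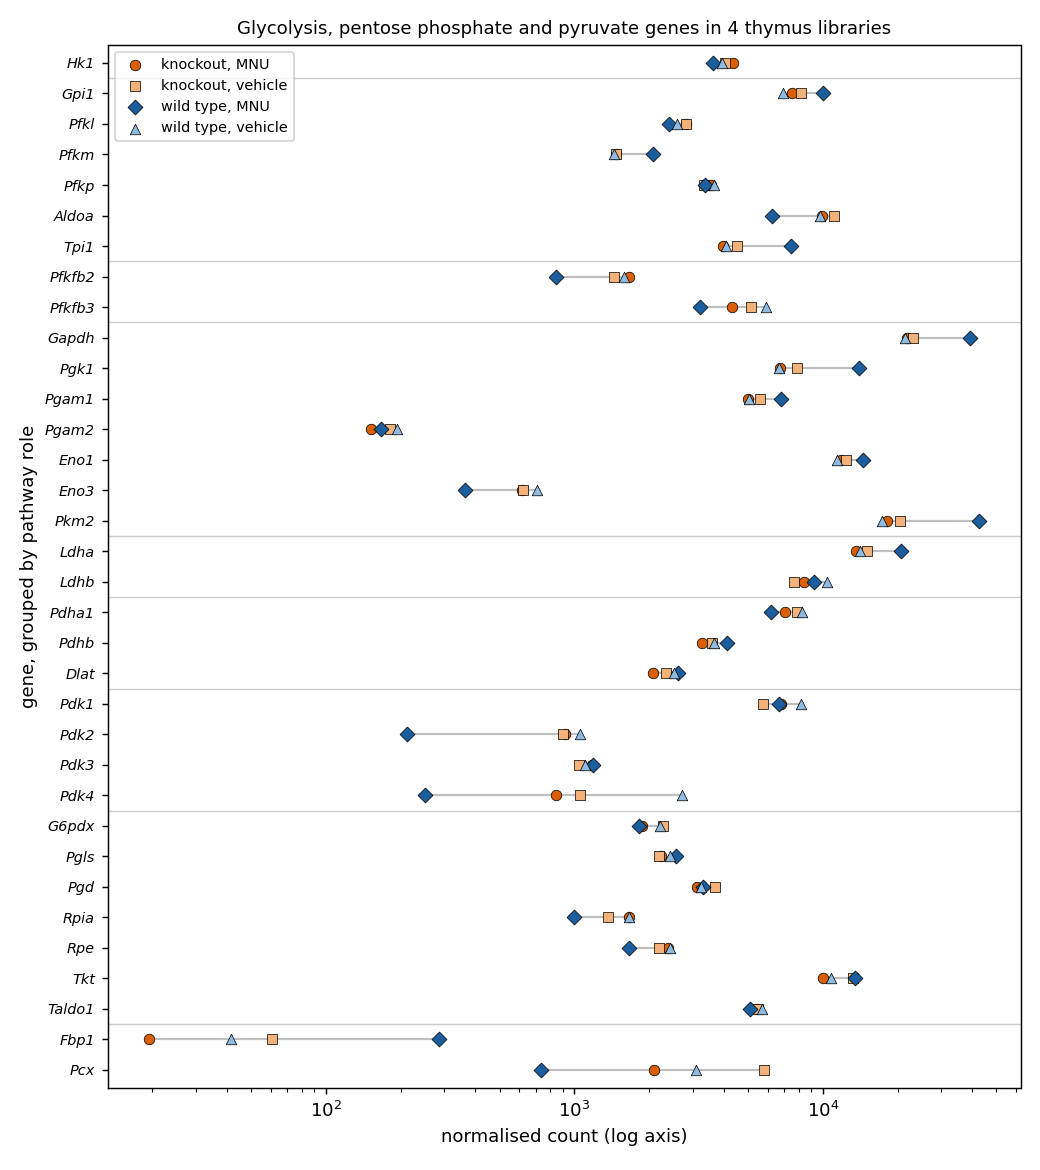
Normalised counts on a log axis for the 34 genes, 1 row per gene in pathway order from Hk1 to Pcx, with 1 point per library and a grey line over the range. The point of MNU-treated wild type lies apart to the right for Gapdh, Pgk1 and Pkm2 and to the left for Pdk2 and Pcx, while the 3 other libraries lie within 1.5-fold of each other for 31 of 34 genes (91.2%, against 87.1% of all genes).

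Of the genes of the first steps, Hk1, Pfkl and Pfkp were close across libraries, while Pfkm and Gpi1 stood higher in MNU-treated wild type. Hk1, the hexokinase that traps glucose in the cell, stood at 4339 in MNU-treated knockout, 4055 in vehicle knockout, 3609 in MNU-treated wild type and 3924 in vehicle wild type. Among the 3 phosphofructokinase genes, whose enzyme commits sugar to glycolysis, Pfkl, the liver-type gene, stood at 2807 in MNU-treated knockout, 2813 in vehicle knockout, 2403 in MNU-treated wild type and 2584 in vehicle wild type. Pfkp, the platelet-type gene, stood at 3553 in MNU-treated knockout, 3330 in vehicle knockout, 3365 in MNU-treated wild type and 3664 in vehicle wild type. All 4 libraries were within 1.2-fold, 1.17-fold and 1.10-fold of each other for Hk1, Pfkl and Pfkp. Pfkm, the muscle-type gene, stood apart in MNU-treated wild type, at 1474 in MNU-treated knockout, 1473 in vehicle knockout, 2071 in MNU-treated wild type and 1443 in vehicle wild type. Gpi1, which turns glucose-6-phosphate into fructose-6-phosphate, was likewise highest in that library, at 7505 in MNU-treated knockout, 8157 in vehicle knockout, 10034 in MNU-treated wild type and 6941 in vehicle wild type.

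The middle of the pathway split in direction. Aldoa, the aldolase that cleaves fructose-1,6-bisphosphate, stood at 9930 in MNU-treated knockout, 11133 in vehicle knockout, 6219 in MNU-treated wild type and 9743 in vehicle wild type. It was lowest in MNU-treated wild type, 1.57-fold below vehicle wild type. Tpi1, which interconverts the 2 products of that cleavage, stood at 3964 in MNU-treated knockout, 4505 in vehicle knockout, 7459 in MNU-treated wild type and 4080 in vehicle wild type, which was 1.83-fold higher in MNU-treated wild type than in vehicle wild type. These consecutive enzymes thus stood on opposite sides of the other libraries. Pfkfb2 and Pfkfb3, which make or remove fructose-2,6-bisphosphate, the activator of phosphofructokinase, were both lowest in MNU-treated wild type. Pfkfb2 stood at 1663 in MNU-treated knockout, 1451 in vehicle knockout, 846 in MNU-treated wild type and 1591 in vehicle wild type. Pfkfb3 stood at 4309 in MNU-treated knockout, 5139 in vehicle knockout, 3209 in MNU-treated wild type and 5898 in vehicle wild type. Against vehicle wild type they were 1.88-fold and 1.84-fold lower.

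Among the glycolytic genes, Pkm2 and Pgk1, whose enzymes carry the ATP-yielding steps, had the largest ratios of MNU-treated to vehicle wild type. Gapdh, which oxidises glyceraldehyde-3-phosphate, stood at 21865 in MNU-treated knockout, 23015 in vehicle knockout, 39062 in MNU-treated wild type and 21460 in vehicle wild type. Pgk1, the first ATP-yielding enzyme, stood at 6750 in MNU-treated knockout, 7876 in vehicle knockout, 13987 in MNU-treated wild type and 6652 in vehicle wild type. Pkm2, which makes pyruvate and the second ATP, stood at 18193 in MNU-treated knockout, 20394 in vehicle knockout, 42529 in MNU-treated wild type and 17358 in vehicle wild type. In all 3 the libraries other than MNU-treated wild type were close together, with the highest at most 1.18-fold above the lowest, and MNU-treated wild type was 1.82-fold, 2.10-fold and 2.45-fold above vehicle wild type. Pgam1, the phosphoglycerate mutase of most tissues, stood at 5009 in MNU-treated knockout, 5580 in vehicle knockout, 6765 in MNU-treated wild type and 5037 in vehicle wild type. Eno1, the common enolase, stood at 11871 in MNU-treated knockout, 12398 in vehicle knockout, 14462 in MNU-treated wild type and 11362 in vehicle wild type. Both were also highest in MNU-treated wild type, by 1.34-fold and 1.27-fold over vehicle wild type. Eno1 has a near-identical copy listed as Gm5506, at 14115 in MNU-treated knockout, 13614 in vehicle knockout, 15027 in MNU-treated wild type and 13405 in vehicle wild type, so reads can be split between them, and Gapdh also has close copies in the mouse genome. The muscle-type genes of these lower steps, Pgam2 and Eno3, did not follow. Pgam2 stood at 152 in MNU-treated knockout, 182 in vehicle knockout, 166 in MNU-treated wild type and 193 in vehicle wild type. Eno3, which was lowest in MNU-treated wild type, stood at 616 in MNU-treated knockout, 623 in vehicle knockout, 364 in MNU-treated wild type and 708 in vehicle wild type. Muscle markers gave mixed values beside them, with 1 of 4 at least 2-fold higher (Tnnt1) and 1 lower (Mylpf) with MNU in wild type, and 5 of 9 listed markers were not analysed here. Their part in the Eno3 value was not tested. Summed over the 7 lower glycolysis genes, the level was 64455 in MNU-treated knockout, 70068 in vehicle knockout, 117336 in MNU-treated wild type and 62770 in vehicle wild type, 1.87-fold higher in MNU-treated wild type than in vehicle wild type. Gapdh and Pkm2 made up most of that sum, and the median fold of the 7 genes was 1.34, with 2 of 7 past 2-fold.

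At the end of the pathway, Ldha, the lactate dehydrogenase subunit that favours lactate formation, stood at 13638 in MNU-treated knockout, 15080 in vehicle knockout, 20598 in MNU-treated wild type and 14103 in vehicle wild type. Ldhb, the subunit that favours the reverse reaction, stood at 8388 in MNU-treated knockout, 7682 in vehicle knockout, 9188 in MNU-treated wild type and 10434 in vehicle wild type. The ratio of Ldha to Ldhb counts, in which gene length cancels between libraries, was 1.63 in MNU-treated knockout, 1.96 in vehicle knockout, 2.24 in MNU-treated wild type and 1.35 in vehicle wild type. It was highest in MNU-treated wild type and lowest in vehicle wild type, and both knockout libraries lay between them.

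At the pyruvate dehydrogenase step, the largest differences were in the kinase genes Pdk2 and Pdk4. Among the subunit genes, the widest range over the libraries was 1.33-fold, for Pdha1, which was lowest in MNU-treated wild type. Pdha1, the catalytic alpha subunit, stood at 7034 in MNU-treated knockout, 7861 in vehicle knockout, 6206 in MNU-treated wild type and 8278 in vehicle wild type. Pdhb, the beta subunit, ranged from 3256 to 4097 and Dlat, the acetyltransferase core, from 2079 to 2603. Of the PDK genes, Pdk2 stood at 920 in MNU-treated knockout, 898 in vehicle knockout, 213 in MNU-treated wild type and 1057 in vehicle wild type, a 4.97-fold lower level in MNU-treated wild type than in vehicle wild type. Pdk4, the PDK known to be induced by fasting and fatty acids, stood at 848 in MNU-treated knockout, 1054 in vehicle knockout, 250 in MNU-treated wild type and 2714 in vehicle wild type. It was 10.9-fold lower in MNU-treated wild type than in vehicle wild type. Pdk1, a known HIF1A target, stood at 6758 in MNU-treated knockout, 5770 in vehicle knockout, 6638 in MNU-treated wild type and 8139 in vehicle wild type, and Pdk3 ranged from 1047 to 1191. Of the 4 PDK genes, Pdk2 and Pdk4 were thus past 2-fold lower in MNU-treated wild type, and the ratio of Pdk1 to Pdk2 was 7.34 in MNU-treated knockout, 6.42 in vehicle knockout, 31.2 in MNU-treated wild type and 7.7 in vehicle wild type.

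**Figure D2:**
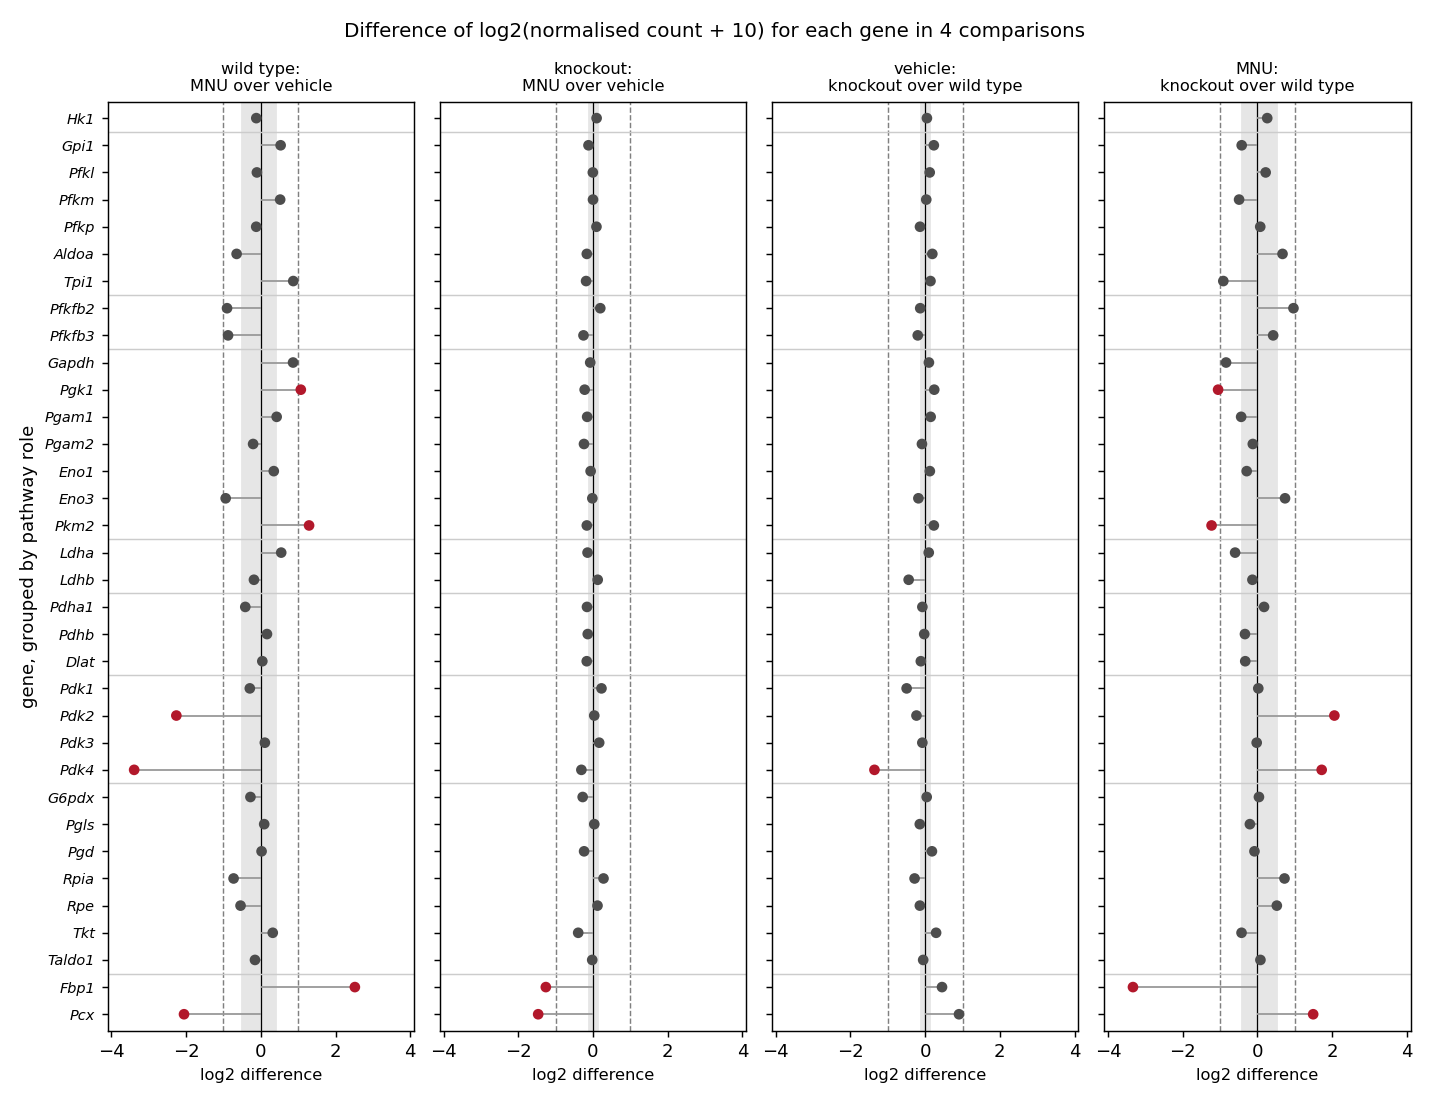
Difference of log2(normalised count + 10) for each of the 34 genes in 4 comparisons, 1 panel each. Points past 2-fold (dashed lines) are red, and the grey band is the interquartile range of all 10587 genes, from -0.51 to 0.41 for MNU in wild type and from -0.12 to 0.13 for MNU in knockout. The outermost panels, which share the wild-type MNU library, hold 6 red points each, the panel of MNU in knockout holds 2 and that of the vehicle libraries holds 1.

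None of the 7 pentose phosphate genes was past 2-fold in any of the 4 comparisons in the plot of differences. Of all genes, 7.14% were higher and 14.2% lower with MNU in wild type, and 0.331% and 2.95% with MNU in knockout. For knockout over wild type, the shares were 2.59% and 0.359% with vehicle, and 15% and 7.37% with MNU. With 7 genes, a count of 0 does not set the pathway apart. Of the oxidative branch, G6pdx, its entry enzyme, stood at 1881 in MNU-treated knockout, 2278 in vehicle knockout, 1825 in MNU-treated wild type and 2213 in vehicle wild type. Pgls, the lactonase after it, ranged from 2189 to 2577 and Pgd, the other NADPH-yielding dehydrogenase, from 3110 to 3668. In the non-oxidative branch, Rpia, which makes ribose-5-phosphate, stood at 1664 in MNU-treated knockout, 1367 in vehicle knockout, 1001 in MNU-treated wild type and 1665 in vehicle wild type. Rpe, the epimerase beside it, stood at 2384 in MNU-treated knockout, 2191 in vehicle knockout, 1657 in MNU-treated wild type and 2418 in vehicle wild type. Both were lowest in MNU-treated wild type, by 1.66-fold and 1.46-fold against vehicle wild type. Tkt, the transketolase that links the pathway back to glycolysis, stood at 10061 in MNU-treated knockout, 13237 in vehicle knockout, 13486 in MNU-treated wild type and 10801 in vehicle wild type and was lowest in MNU-treated knockout. Taldo1, the transaldolase, ranged from 5111 to 5694.

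Fbp1 and Pcx, which run against glycolysis, had, with Pdk4, the widest ranges over the libraries, 14.7-fold for Fbp1, 10.9-fold for Pdk4 and 7.88-fold for Pcx. Fbp1, the fructose-1,6-bisphosphatase of gluconeogenesis, was low throughout, at 19.4 in MNU-treated knockout, 60.6 in vehicle knockout, 286 in MNU-treated wild type and 41.6 in vehicle wild type. It was 6.86-fold higher in MNU-treated wild type than in vehicle wild type. After subtraction of the wild-type MNU share, its value in vehicle knockout was 19.7, beside 19.4 in MNU-treated knockout. Pcx, which makes oxaloacetate from pyruvate and is abundant in fat, stood at 2085 in MNU-treated knockout, 5780 in vehicle knockout, 733 in MNU-treated wild type and 3079 in vehicle wild type. Adipocyte markers moved with it in the comparisons of MNU with vehicle. All 10 of 10 were measured, their summed level was 19489 in MNU-treated knockout, 57766 in vehicle knockout, 11188 in MNU-treated wild type and 55181 in vehicle wild type, and Lep, the fat hormone, was listed at 0 in MNU-treated wild type. With MNU, 9 of the 10 were at least 2-fold lower in each genotype. Between the vehicle libraries, Pcx was 1.88-fold higher in knockout, while the adipocyte sum was 1.05-fold higher, 2 of 10 markers were higher and 1 lower, and their median log2 difference was -0.12. The order of the libraries was the same for Pcx and for the sum of the adipocyte markers, not for every marker, whereas Pdk4 was highest in vehicle wild type. The part of fat tissue in the Pcx and Pdk4 values was not tested.

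**Figure D3:**
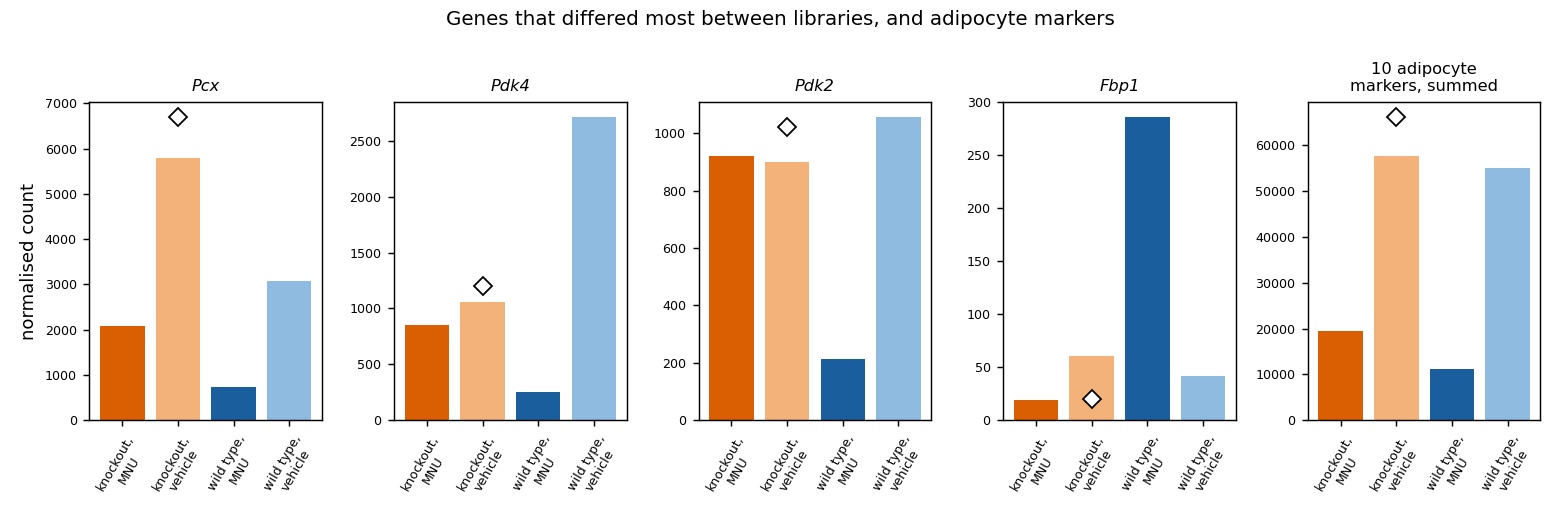
Bars give the normalised count of Pcx, Pdk4, Pdk2 and Fbp1, the 4 genes with the widest range over the libraries, and the sum of 10 adipocyte markers in MNU-treated knockout, vehicle knockout, MNU-treated wild type and vehicle wild type, and the open diamond gives vehicle knockout after subtracting the wild-type MNU share. Pcx and the adipocyte sum share the order of their bars, and the Fbp1 diamond, at 19.7, lies at the height of the MNU-treated knockout.

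With MNU, the knockout was past 2-fold from the wild type in the same 6 genes, each in the opposite direction. This comparison shares the wild-type MNU library with the one above. Pdk2, Pdk4 and Pcx were 4.33-fold, 3.39-fold and 2.84-fold higher in the knockout, and Fbp1, Pkm2 and Pgk1 were 14.7-fold, 2.34-fold and 2.07-fold lower. These were 3 of 34 genes higher, where 15% of all genes were, and 3 lower, where 7.37% were. The median log2 difference was -0.05, against 0.01 over all genes. At 1.5-fold, 7 of 34 were higher, adding Aldoa, Pfkfb2, Eno3 and Rpia, where 23.5% of all genes were, and 6 were lower, adding Tpi1, Gapdh and Ldha, where 17.1% were. The sum over lower glycolysis genes in MNU-treated knockout was 0.549 times that in MNU-treated wild type, and the median ratio of the 7 genes was 0.741.

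In the knockout, most of these genes stood near the same level with and without MNU, and Pkm2, Pgk1 and Gapdh had ratios of 0.892, 0.857 and 0.950. With the share subtracted these ratios were 1.11, 0.998 and 1.09. Of the 34 genes 0 were at least 2-fold higher, where 0.331% of all genes were, and 2 were lower, Fbp1 and Pcx, where 2.95% were. Pcx was 2.77-fold lower with MNU, and 3.21-fold lower with the share subtracted. For Fbp1 the 3.12-fold lower level became 1.01-fold lower with the share subtracted. After subtraction 0 of 34 genes were higher, where 0.397% of all genes were, and 1 was lower, where 1.87% were. At 1.5-fold and as deposited, 0 were higher and 2 lower, where 1.45% and 5.73% were. Leaving out the vehicle knockout library and setting MNU-treated knockout against vehicle wild type, 0 of 34 genes were higher, where 1.57% of all genes were, and 1 was lower, Pdk4 (3.20-fold), where 1.11% were. At 1.5-fold 0 were higher, where 4.09% were, and 2 were lower, Pdk4 and Fbp1, where 2.83% were. In that comparison Pcx was 1.48-fold lower, Fbp1 was 2.14-fold lower as a ratio of values with a log2(value + 10) difference of -0.81, and Pkm2, Pgk1 and Gapdh had ratios of 1.05, 1.01 and 1.02. The median log2 difference of the 34 genes with MNU in knockout was -0.13, against 0.01 over all genes. With the share subtracted the median of the 34 genes was -0.04. Neutrophil markers, another measured shift of this comparison, had a summed level of 2046 in MNU-treated knockout, 596 in vehicle knockout, 2292 in MNU-treated wild type and 606 in vehicle wild type, and the 12 measured macrophage markers 66247 in MNU-treated knockout, 53869 in vehicle knockout, 58020 in MNU-treated wild type and 34084 in vehicle wild type. Their part in these values was not tested.

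Without MNU, the knockout held less Pdk4, 2.58-fold below wild type, the 1 gene of 34 past 2-fold, where 0.359% of all genes were lower. With the share subtracted Pdk4 was 2.26-fold lower and still the 1 lower gene, where 0.501% were. Pdk4 was lower in both knockout libraries, at 1054 and 848, than in vehicle wild type, at 2714. Both comparisons share that 1 wild-type library, and MNU-treated wild type, with an intact gene, was lower still, at 250. Of the 34 genes 0 were at least 2-fold higher, where 2.59% of all genes were. Pcx was 1.88-fold higher, and 2.17-fold higher with the share subtracted, which made it the 1 gene past 2-fold upward, where 1.72% were. At 1.5-fold, as deposited, Pcx was the 1 higher gene and Pdk4 the 1 lower, where 5.71% and 1.49% of all genes were. In MNU-treated knockout, in contrast, Pcx was below vehicle wild type, so its direction against that library differed between the 2 knockout libraries. Ldhb was 1.36-fold lower and Pdk1 1.41-fold lower in vehicle knockout. The median log2 difference of the 34 genes was 0.00, and -0.05 with the share subtracted.

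**Figure D4:**
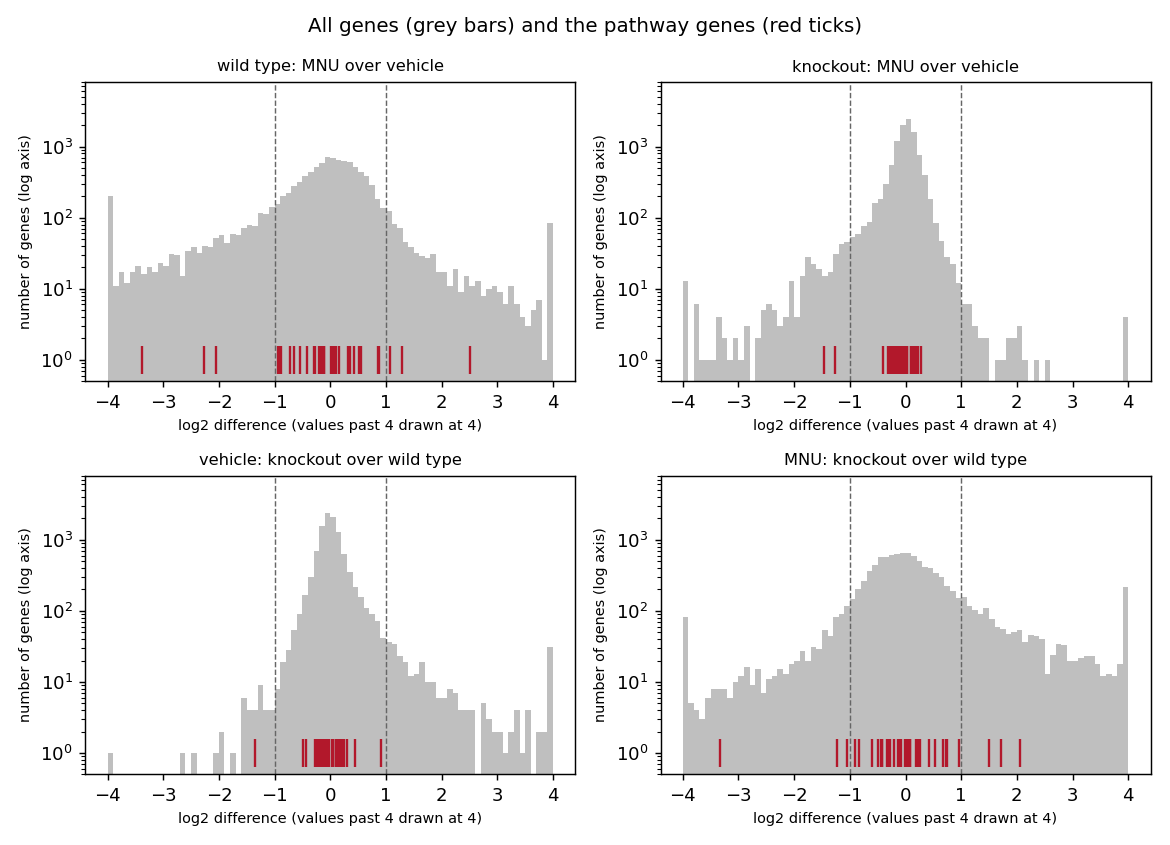
Distribution of the log2 difference over 10587 genes (grey bars, number of genes on a log axis) in 4 comparisons, with the 34 genes as red ticks and 2-fold as dashed lines. The ticks spread with the grey bars in the 2 comparisons that hold the wild-type MNU library and gather near 0 in the other 2, where 2 of 34 and 1 of 34 lie past 2-fold.

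The MNU difference itself was set against genotype as the change in knockout minus the change in wild type. At 2 or more on the log2 scale, 2 of 34 genes were higher, Pdk4 (3.08) and Pdk2 (2.29), where 6.62% of all genes were, and 1 was lower, Fbp1 (-3.78), where 3.64% were. With the share subtracted the same numbers of the 34 genes were past the threshold, where 5.88% and 2.96% of all genes were, and Fbp1 stood at -2.53. With vehicle wild type in place of the vehicle knockout library, vehicle wild type cancels. Only MNU-treated knockout over MNU-treated wild type then remains, 1.72 for Pdk4. That is not a difference of MNU changes and cannot check these calls. At 1 or more on the log2 scale, 4 of 34 were higher, adding Pfkfb2 (1.10) and Rpia (1.01), where 15.8% of all genes were, and 4 were lower, adding Pkm2 (-1.46), Pgk1 (-1.29) and Tpi1 (-1.05), where 9.53% were. Wild type with MNU lay above all other libraries for 15 of 34 genes (44.1%) and below all of them for 14 (41.2%), against 44.4% and 43.3% of all genes, which are close shares. Of the 7 lower glycolysis genes it lay above for 5, and of the 7 pentose phosphate genes it lay above for 2 and below for 4.

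The ratio of Pfkfb3 to Pfkfb2 was 2.59 in MNU-treated knockout, 3.54 in vehicle knockout, 3.79 in MNU-treated wild type and 3.71 in vehicle wild type, lowest in MNU-treated knockout. The ratio of Pfkp to Pfkl was 1.27 in MNU-treated knockout, 1.18 in vehicle knockout, 1.4 in MNU-treated wild type and 1.42 in vehicle wild type. Both ratios were close in the wild-type libraries.

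Genes next to the pathway were read from lists drawn up by function, and their counts with MNU in wild type stand against 7.14% of all genes higher and 14.2% lower. The median over all genes was -0.01 on the log2 scale. Of 9 measured glucose, lactate and pyruvate transporters, 1 was higher with MNU in wild type (11.1%) and 1 lower (11.1%), at a median log2 difference of -0.06. Slc16a3, the lactate exporter MCT4, stood at 224 in MNU-treated knockout, 309 in vehicle knockout, 859 in MNU-treated wild type and 107 in vehicle wild type. Slc2a4, the insulin-responsive glucose transporter of fat and muscle, stood at 580 in MNU-treated knockout, 1245 in vehicle knockout, 74.2 in MNU-treated wild type and 839 in vehicle wild type. In MNU-treated wild type, Slc16a3 was at its highest and Slc2a4 at its lowest. Among 16 measured regulators, 3 were higher (18.8%) and 1 lower (6.25%) with MNU in wild type, at a median log2 difference of -0.06. Myc, short of 2-fold, stood at 2736 in MNU-treated knockout, 2574 in vehicle knockout, 3303 in MNU-treated wild type and 2654 in vehicle wild type. Hif1a, also short of it, was at 7146 in MNU-treated knockout, 7699 in vehicle knockout, 6603 in MNU-treated wild type and 6776 in vehicle wild type. Epas1, a hypoxia factor that is also abundant in endothelium, stood at 1635 in MNU-treated knockout, 3523 in vehicle knockout, 10935 in MNU-treated wild type and 1951 in vehicle wild type. Fibroblast and endothelial markers, 7 of 10 measured, had a summed level of 20258 in MNU-treated knockout, 32400 in vehicle knockout, 56723 in MNU-treated wild type and 22620 in vehicle wild type, and 4 of the 7 were at least 2-fold higher with MNU in wild type. The list pools both cell types, so the sum is not a level of endothelium. In MNU-treated knockout against MNU-treated wild type, 4 of the 7 were past 2-fold, all lower, and 3 were within. These 4 were Pdgfrb, Col1a1, Col3a1 and Col1a2, which are not endothelial markers. The part of either cell type in the Epas1 value was not tested. Egln3, an oxygen-sensing hydroxylase and hypoxia target, stood at 1373 in MNU-treated knockout, 1796 in vehicle knockout, 3708 in MNU-treated wild type and 1365 in vehicle wild type. Foxo1 is a known activator of Pdk4. It stood at 2990 in MNU-treated knockout, 3569 in vehicle knockout, 8067 in MNU-treated wild type and 3046 in vehicle wild type. Its level was highest in the library where Pdk4 was lowest, and its part in the Pdk4 value was not tested. Mlxipl, the carbohydrate-responsive factor of liver and fat, stood at 208 in MNU-treated knockout, 624 in vehicle knockout, 38.9 in MNU-treated wild type and 360 in vehicle wild type, with the library order of Pcx. Of 12 measured hypoxia-induced genes outside glycolysis, 2 were higher (16.7%) and 1 lower (8.33%) with MNU in wild type, at a median log2 difference of -0.31. Ndrg1, the lower one, stood at 1665 in MNU-treated knockout, 1730 in vehicle knockout, 710 in MNU-treated wild type and 1872 in vehicle wild type, and Ddit4, an inhibitor of mTORC1, at 3818 in MNU-treated knockout, 11695 in vehicle knockout, 17913 in MNU-treated wild type and 8552 in vehicle wild type, lowest in MNU-treated knockout.

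Of 11 measured glycogen and galactose genes, 2 were lower with MNU in wild type (18.2%, where 14.2% of all genes were) and 0 higher, at a median log2 difference of -0.47 against -0.01 over all genes. These were the glycogen phosphorylases Pygl, at 1148 in MNU-treated knockout, 1597 in vehicle knockout, 427 in MNU-treated wild type and 1311 in vehicle wild type, and Pygb, at 3596 in MNU-treated knockout, 3888 in vehicle knockout, 1609 in MNU-treated wild type and 3752 in vehicle wild type. Of 24 citric acid cycle and malic enzyme genes, 1 was lower with MNU in wild type (4.17%, where 14.2% of all genes were), the cytosolic isocitrate dehydrogenase Idh1, at 1882 in MNU-treated knockout, 2235 in vehicle knockout, 981 in MNU-treated wild type and 2332 in vehicle wild type, and 1 was lower with MNU in knockout (4.17%, where 2.95% were), the malic enzyme Me1, at 1537 in MNU-treated knockout, 4001 in vehicle knockout, 1817 in MNU-treated wild type and 2167 in vehicle wild type. Me1 supplies NADPH for fat synthesis and was highest in vehicle knockout, as were the summed adipocyte markers. Their library orders differed otherwise: Me1 was lowest in MNU-treated knockout and the adipocyte sum in MNU-treated wild type. The part of fat tissue in the Me1 value was not tested. The median log2 difference of the 24 genes with MNU was -0.17 in wild type, and their summed level was 109201 in MNU-treated knockout, 115156 in vehicle knockout, 114111 in MNU-treated wild type and 122907 in vehicle wild type.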

How the data were processed

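RNA sequencing libraries were made from total RNA of thymus with a TruSeq kit, at RNA integrity numbers over 7.5, per the labels' protocols. The submitters' processing notes name TopHat2 2.0.8b, edgeR and build mm9, without their roles. The sources used here do not give the gene counter, the annotation or the method of normalisation. The deposited table holds a signal per gene and library, which the authors call normalised counts. The values are not whole numbers, so no count model was applied, and counting intervals were not computed. Groups were taken from the labels. The log2 of value plus 10 was compared between libraries, for the 10587 genes whose mean across libraries reached 10, and all 34 members passed. A gene was counted at 2-fold or more, with no test, since each group had 1 library. For a single gene, a fold is the plain ratio of its values. This scale understates the difference of low genes such as Fbp1.

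The members and lists were chosen with earlier results of these data known, and support nothing independently. All members are named, and up to 4 genes of each other list with the largest difference past 2-fold in any comparison were eligible. Myc and Hif1a are given outside this rule, as the factors introduced with the pathway. Isozyme ratios of Hk2, Aldoc and Eno2 could not be formed. The subtracted share is the median over 42 genes of the excess in vehicle knockout over the excess in MNU-treated wild type, each above the mean of the other 2 libraries, and the remainder was rescaled. Alternatives were pseudocounts of 2.5 and 40, no filter and a mean of at least 100, median-of-ratios and upper-quartile scaling, a 1.5-fold threshold, and the share subtracted or that library left out. Promoter sequences are RefSeq's on GRCm38.p6, matched by symbol, with Pkm2 matched to Pkm by synonym. Calculations used Python 3.11.15 with pandas 2.3.3 and numpy 2.4.6, and were tested on simulated data.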

Additional observations from a re-analysis of the deposited data

Results flagged for a closer look

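Fbp1 was the 1 gene of the 34 that was past 2-fold with MNU in both genotypes and in opposite directions. Its log2 difference was -1.26 with MNU in knockout and 2.52 with MNU in wild type. The difference between genotypes was not tested, since each group had 1 library. With the wild-type MNU share subtracted from the vehicle knockout library, the difference in knockout was -0.01.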

How the results depend on the processing

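The counts of genes past 2-fold moved with 4 of the alternatives. With a pseudocount of 40, 1 of 34 genes was lower with MNU in knockout in place of 2. With the share subtracted the same count was 1, and 1 gene was higher in vehicle knockout in place of 0, by the construction of the subtraction. With the vehicle knockout library left out, 1 gene, Pdk4, was lower in MNU-treated knockout than in vehicle wild type. Neither Fbp1 nor Pcx, the genes lower with MNU in knockout, was counted there. The difference of MNU changes then becomes MNU-treated knockout over MNU-treated wild type, with 1 gene higher at 2 on the log2 scale. It is therefore no check on that difference. At 1.5-fold, 5 genes were higher and 8 lower with MNU in wild type, where 17.2% and 22.7% of all genes were, 1 was higher in vehicle knockout, and 7 were higher and 6 lower in MNU-treated knockout. The difference of MNU changes at 1 on the log2 scale gave 4 higher and 4 lower, where 15.8% and 9.53% of all genes were. Under no filter, the higher filter, the lower pseudocount and both scalings no count moved by over 1.5 times, and no called gene reversed under any alternative. The scalings moved the median of all genes by at most 0.03. No paired analysis was possible because each group held 1 library. With 1 library per group, a difference between groups and a difference between animals cannot be told apart.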
